A study of Mus musculus with 3 samples.

Results

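The Schlafen family was examined in murine bone marrow-derived macrophages (BMDMs) treated with lipoproteins of *Borrelia burgdorferi*. The members are the 7 genes *Slfn1*, *Slfn2*, *Slfn3*, *Slfn4*, *Slfn5*, *Slfn8* and *Slfn9*, taken by symbol from the 32285 genes of the deposited matrices. All 7 were present and all 7 had UMIs in every library. The rule, a match of symbols, uses no measured value, but the members were chosen with earlier results of these data known.

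Marrow of female C3H/HeN mice aged 6 to 8 weeks was pooled and grown into macrophages in medium conditioned by L929 cells. The BMDMs received PBS (Ctrl, labelled untreated) or 1 µg/mL of purified borrelial lipoproteins (*Bb*LP), which signal through Toll-like receptor 2, and were collected after 1 hour (LP1) or after 4 hours (LP4), the latter together with Ctrl. By the study's single-cell methods the BMDMs came from 3 mice, and the cells of 3 separately treated wells were pooled for each of the 3 libraries before capture. Each condition is therefore 1 library with no replicate, no test between conditions was made, and every interval below covers counting error only, at 95%.

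Schlafen proteins are found in mammals as short, intermediate and long forms that share an N-terminal core with nuclease-like folds, and the long forms add a C-terminal region related to helicases. Several family members are induced by type I interferon in immune cells, and the family has been linked to quiescence of lymphocytes and monocytes, to cleavage or protection of transfer RNA and to restriction of viruses. In mice, *Slfn1* and *Slfn2* encode short forms, *Slfn3* and *Slfn4* intermediate forms, and *Slfn5*, *Slfn8* and *Slfn9* long forms.

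The members lie side by side on chromosome 11, in 264 kb of GRCm38 (the build also called mm10) between the start of *Slfn5* and the end of *Slfn3*, by GENCODE vM21. From the lower coordinate upward, the order is *Slfn5* (ENSMUSG00000054404, chr11:82951349-82964840, plus strand), *Slfn9* (ENSMUSG00000069793, chr11:82978390-82991830, minus strand) and *Slfn8* (ENSMUSG00000035208, chr11:83002158-83020810, minus strand). They are followed by *Slfn2* (ENSMUSG00000072620, chr11:83065112-83070678), *Slfn1* (ENSMUSG00000078763, chr11:83116849-83122670), *Slfn4* (ENSMUSG00000000204, chr11:83175186-83190216) and *Slfn3* (ENSMUSG00000018986, chr11:83191330-83215154), all on the plus strand.

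The stretches just before the transcription start are shown because the 7 members fell into 2 sets by what these stretches hold. The run of bases that marks the second set was picked from these same stretches. RefSeq promoters of GRCm38.p6, from 250 bases before to 50 bases after the start, were found for all 7 members, with 2 starts for *Slfn8*. They were searched on both strands for the core of the interferon-stimulated response element (ISRE), which is GAAA, any 2 bases and GAAA and which many interferon-stimulated genes are known to carry, for the palindrome of TTC, any 3 bases and GAA and for the kappa B site (GGGA, any 3 bases, TCC). The ISRE core was found in the 3 long members and in no other member, against 3.44% of all 32851 promoters. The 250 bases before the start are printed for these 3, for *Slfn5* at chr11:82951852-82952101 on the plus strand, for *Slfn8* at chr11:83020811-83021060 and for *Slfn9* at chr11:82991831-82992080, both on the minus strand. All are 5′ to 3′ along the gene, with the ISRE match in capitals.
Slfn5: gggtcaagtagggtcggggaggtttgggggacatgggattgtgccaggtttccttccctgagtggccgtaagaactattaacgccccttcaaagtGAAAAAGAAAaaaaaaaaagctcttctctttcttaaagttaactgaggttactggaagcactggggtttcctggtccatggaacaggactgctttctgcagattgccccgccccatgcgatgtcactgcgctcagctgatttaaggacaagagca
Slfn8: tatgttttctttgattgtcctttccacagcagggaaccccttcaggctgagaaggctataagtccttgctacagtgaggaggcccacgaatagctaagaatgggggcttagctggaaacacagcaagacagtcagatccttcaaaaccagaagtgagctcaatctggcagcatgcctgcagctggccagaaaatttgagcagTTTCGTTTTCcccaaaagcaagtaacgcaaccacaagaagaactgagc
Slfn9: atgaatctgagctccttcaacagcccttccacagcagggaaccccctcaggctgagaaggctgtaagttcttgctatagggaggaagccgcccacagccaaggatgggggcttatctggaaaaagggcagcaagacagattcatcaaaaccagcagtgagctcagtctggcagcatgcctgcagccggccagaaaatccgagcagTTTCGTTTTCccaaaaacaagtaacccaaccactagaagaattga
In *Slfn5* the match GAAAAAGAAA starts 155 bases before the transcription start. In *Slfn8* and *Slfn9* the same match, GAAAACGAAA read on the opposite strand, starts 48 and 45 bases before it, and both stretches also share a run of 20 identical bases. The *Slfn5* match runs straight into a run of A. By coordinates the *Slfn5* stretch lies inside the GENCODE span given above, because the RefSeq start used here is downstream of the GENCODE start. The letters of the palindrome, which 8.30% of all promoters hold, and those of the strict kappa B form, which 4.59% hold, were in 0 of the 7 members. Looser forms of the kappa B site were not searched, so their absence is not shown.

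The short and intermediate members shared other letters. The run ACTTCCTGG was chosen after the promoters had been compared with each other, as a run that these members share. It was in all 4 of them within 74 bases of the start, in 0 of the 3 long members, and in 0.700% of all promoters on either strand. Because it was picked from these promoters, its presence in all 4 is no separate ground for dividing the members. The 60 bases around it are printed on the plus strand, with the run in capitals, for *Slfn1* (chr11:83116721-83116780), *Slfn2* (chr11:83065032-83065091), *Slfn3* (chr11:83191263-83191322) and *Slfn4* (chr11:83175088-83175147).
Slfn1: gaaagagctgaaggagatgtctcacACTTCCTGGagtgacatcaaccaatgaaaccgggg
Slfn2: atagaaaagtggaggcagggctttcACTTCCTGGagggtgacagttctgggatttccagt
Slfn3: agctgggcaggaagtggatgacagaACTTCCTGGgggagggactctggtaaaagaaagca
Slfn4: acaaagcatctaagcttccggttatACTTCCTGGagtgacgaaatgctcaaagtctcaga
A match of letters is a description of the reference sequence and not a measured binding site.

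Some members share stretches with another member or with a pseudogene, which bears on how reads are assigned. In the last 500 bases of the GENCODE transcripts, where this 3′ assay reads, 0 of the 50-base words of *Slfn1*, *Slfn2*, *Slfn4* and *Slfn5* occurred in another gene. The share was 15.98% in *Slfn3*, almost all with *Slfn4*, 25.5% in *Slfn8* and 15.8% in *Slfn9*, mostly with the pseudogene *Slfn10-ps*. That pseudogene is not among the genes of the matrices, so its level and the assignment of its reads are unknown. The levels of *Slfn3*, *Slfn8* and *Slfn9* are uncertain for this reason, by an amount that these shares do not measure.

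The libraries were deep enough to count every member. After selection of cells, 6071 Ctrl, 5065 LP1 and 4670 LP4 cells held 35688939, 52475723 and 61402275 UMIs, with a median per cell of 5133, 9343 and 11784. Of the cell barcodes, 10 were shared by Ctrl and LP1, 7 by Ctrl and LP4 and 4 by LP1 and LP4. Levels are UMIs of a gene summed over the cells of a library and scaled to a total of 1000000 (CPM), in which fewer cells with a transcript and less of it per cell cannot be told apart. The summed CPM of 10 macrophage markers was 11556, 11765 and 10601 in Ctrl, LP1 and LP4, so genes of the labelled type were expressed. Most of that sum was *Lyz2*, with 9209, 9684 and 8716.5 CPM, so it says little of the other markers. Over the 10 markers the log2 ratio of LP4 over Ctrl ranged from -1.40 (*C1qa*) to 1.16 (*Fcgr1*), with a median of -0.44. Among other types, the summed CPM of 12 neutrophil markers was 397, 300 and 570, that of 10 dendritic cell markers 152, 151 and 154, that of 12 cycling markers 667, 735 and 693, that of 6 stromal markers 4.29, 5.85 and 19.7, and that of 3 plasmacytoid dendritic cell markers 63.9, 146 and 183, nearly all of it from the interferon-stimulated gene *Bst2*. The sums were below 4 CPM in each library for 7 T cell and 3 NK cell markers, with *Cd3e*, *Cd8a* and *Ncr1* at 0 in all 3 libraries. The part of these shifts in the results below was not tested, except where cell clusters are compared.

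At 4 hours of *Bb*LP, 6 of the 7 members were at least 2-fold higher than in Ctrl, and *Slfn2*, the most abundant member at rest, was the exception. Across all 14361 genes with at least 20 UMIs in both libraries together, 11.6% were at least 2-fold higher. The median log2 ratio of the 7 members, LP4 over Ctrl, was 2.49, beside -0.15 over all those genes. None of the members was 2-fold lower, against 15.6% of genes. At 1 hour, by contrast, 0 of the 7 members were at least 2-fold higher than in Ctrl, where 1.45% of 14085 genes were, and 1, *Slfn4*, was at least 2-fold lower, where 3.15% were. The median at 1 hour was -0.29, beside -0.04 over all genes. Both comparisons share the Ctrl library.

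**Figure D1:**
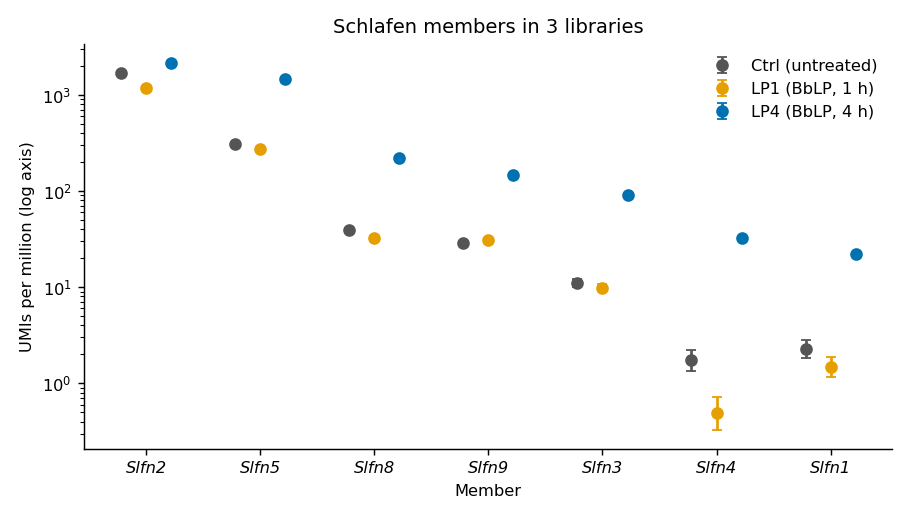
CPM (log axis) of each member in Ctrl, LP1 and LP4, with exact Poisson 95% intervals; intervals not visible are smaller than the points. The LP4 point is the highest of the 3 for every member, by the least for *Slfn2* (2160 against 1665 in Ctrl), and *Slfn4* in LP1 (0.50) is the lowest point.

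*Slfn2* is the short member whose loss in mice is known to break the quiescence of T cells and monocytes. Its level was 1665 CPM in Ctrl (interval 1652 to 1679), 1179 in LP1 (1169 to 1188) and 2160 in LP4 (2149 to 2172). The levels thus went below Ctrl at 1 hour and above it at 4 hours, with log2 ratios of -0.50 (-0.52 to -0.48) for LP1 and 0.38 (0.36 to 0.39) for LP4. Nearly every cell had a UMI of *Slfn2*, from 99.1% of Ctrl to 99.9% of LP4 cells. Its share of all UMIs of the family was 81.1% for Ctrl, 77.1% for LP1 and 52.2% for LP4.

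*Slfn1*, the other short member and a growth regulator of thymocytes, was scarce at rest. It had 82 UMIs or 2.30 CPM (1.83 to 2.85) in Ctrl, 78 or 1.49 CPM (1.17 to 1.86) in LP1 and 1352 or 22.02 CPM (20.9 to 23.2) in LP4. The log2 ratio to Ctrl was -0.63 (-1.09 to -0.16) in LP1 and 3.26 (2.94 to 3.60) in LP4, a 9.58-fold higher level at 4 hours.

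Of the intermediate members, *Slfn4*, a gene of activated myeloid cells, was the scarcest member in Ctrl and LP1 and showed the widest spread between libraries. Ctrl held 62 UMIs of it (1.74 CPM, 1.33 to 2.23), LP1 26 (0.50 CPM, 0.32 to 0.73) and LP4 1981 (32.3 CPM, 30.9 to 33.7). The log2 ratio was -1.81 (-2.53 to -1.13) for LP1 over Ctrl and 4.22 (3.85 to 4.60) for LP4 over Ctrl, an 18.6-fold difference that ranks *Slfn4* 76th among the 14361 genes. From LP1 to LP4 the log2 ratio was 6.02 (5.47 to 6.64), which ranks 9th of 14506. *Slfn3*, known for its role in the differentiation of intestinal epithelium, had 11.1 CPM (10.0 to 12.2) in Ctrl, 9.83 (9.003 to 10.7) in LP1 and 90.2 (87.8 to 92.6) in LP4. Its LP1 interval on the log2 scale included 0 (-0.17, -0.36 to 0.02), and LP4 was 8.15-fold above Ctrl (log2 3.03, 2.88 to 3.18).

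The long members were the most abundant after *Slfn2*. *Slfn5*, a nuclear member known as an interferon-stimulated gene, had 305 CPM (299 to 311) in Ctrl, 276 (271 to 280) in LP1 and 1469 (1459 to 1478) in LP4. Its LP1 level was just below Ctrl (log2 -0.15, -0.18 to -0.11, and -0.030 with a mitochondrial limit of 3%), and its LP4 level 4.81-fold higher (log2 2.27, 2.24 to 2.30). *Slfn8*, studied in mouse models of autoimmune brain inflammation, had 39.3 CPM (37.3 to 41.4), 32.2 (30.7 to 33.8) and 222 (218 to 225), in the same order. Its log2 ratio was -0.29 (-0.39 to -0.19) in LP1 and 2.49 (2.41 to 2.57) in LP4. *Slfn9* had 28.6 CPM (26.9 to 30.4) in Ctrl, 30.8 (29.3 to 32.4) in LP1 and 146 (143 to 149) in LP4. It was the only member whose LP1 value was above Ctrl, and there the interval included 0 (log2 0.11, -0.01 to 0.22), while LP4 was 5.10-fold higher (log2 2.35, 2.26 to 2.44).

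In LP4 against LP1 the same 6 members were at least 2-fold higher, where 10.9% of 14506 genes were, and 0 members were 2-fold lower, where 12.5% were. *Slfn2* was again under the limit, with a 1.83-fold higher level (log2 0.87, 0.86 to 0.89). The median of the 7 was 2.78, beside -0.10 over all genes. The family as a whole went from 2053 CPM in Ctrl to 1529 in LP1 and 4141 in LP4. Within that sum the share of *Slfn5* was 14.9%, 18.0% and 35.5%. The order of levels was *Slfn2*, *Slfn5*, *Slfn8*, *Slfn9*, *Slfn3* in every library, with *Slfn8* and *Slfn9* within overlapping intervals in LP1 alone, and below them *Slfn1* before *Slfn4* in Ctrl and LP1 and *Slfn4* before *Slfn1* in LP4. The intervals of *Slfn1* and *Slfn4* overlapped in Ctrl. Counts of 3′ ends do not by design grow with transcript length, but capture can differ between genes. Whether intronic reads were counted is not given, and the part of gene length in this order was not tested.

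Along the chromosome the log2 ratio of LP4 over Ctrl was 2.27, 2.35 and 2.49 for the adjoining *Slfn5*, *Slfn9* and *Slfn8*, 0.38 for *Slfn2* in the middle, and 3.26, 4.22 and 3.03 for *Slfn1*, *Slfn4* and *Slfn3*. The span holds 22 annotated genes, of which 11 were in the matrices. Of those that are not members, *Slfn5os*, antisense to *Slfn5*, had 24, 17 and 150 UMIs in Ctrl, LP1 and LP4 (log2 1.86, 1.23 to 2.55, LP4 over Ctrl), *Gm20234*, antisense to *Slfn2*, had 105, 73 and 76, and *1190001M18Rik* and *Gm48462* had at most 2. Whether strand was used in counting is not given in the sources used here, so reads of a gene and its antisense partner may not be separated. Beyond *Slfn3*, the related *Slfn14* had 0, 1 and 1 UMIs, and *Slfnl1*, on another chromosome, had 3, 4 and 1. Neither was detected at a level that allows a ratio.

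**Figure D2:**
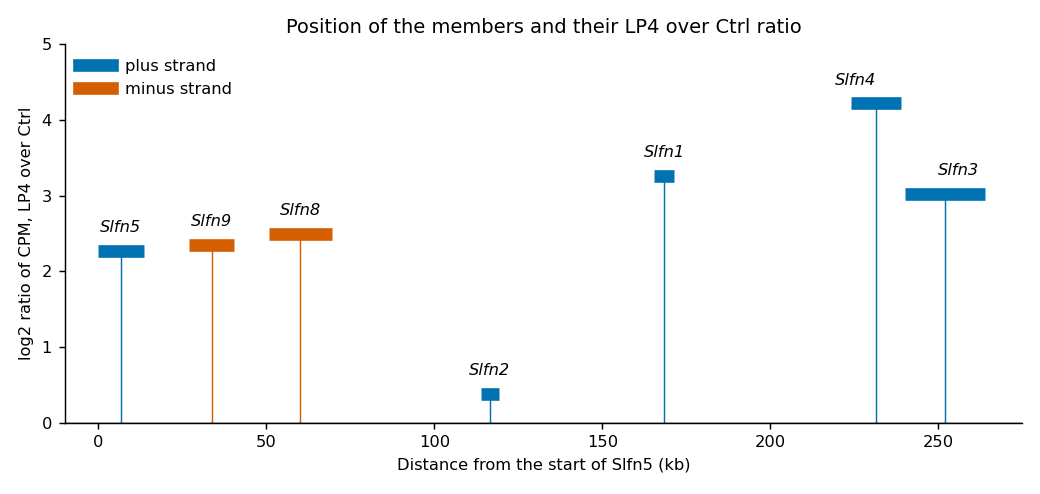
Horizontal bars mark each member from start to end, in kb from the start of *Slfn5*, at the height of its log2 ratio of LP4 over Ctrl; colours give the strand. *Slfn2*, at 0.38, sits between 3 members at 2.27 to 2.49 and 3 members at 3.03 to 4.22.

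The difference was also seen cell by cell. To set cells of unequal depth side by side, 2000 UMIs were drawn from every cell, and 122 cells of Ctrl, 13 of LP1 and 45 of LP4 had too few. The share of thinned cells with *Slfn5* was 40.8% in Ctrl (39.6 to 42.1), 38.0% in LP1 (36.7 to 39.4) and 89.4% in LP4 (88.5 to 90.3). At full depth the shares were 66.2%, 75.3% and 98.6%, so that the higher LP1 share at full depth went with its deeper cells. For *Slfn8* the thinned shares were 7.31%, 6.16% and 32.6%, for *Slfn9* 5.50%, 5.86% and 24.3%, and for *Slfn3* 2.22%, 1.88% and 15.2%. Without thinning, they were 17.8%, 23.3% and 76.8% for *Slfn8*, 13.3%, 21.4% and 69.9% for *Slfn9*, and 5.86%, 8.27% and 54.99% for *Slfn3*. *Slfn2* was found in 93.4%, 88.3% and 97.4% of thinned cells.

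**Figure D3:**
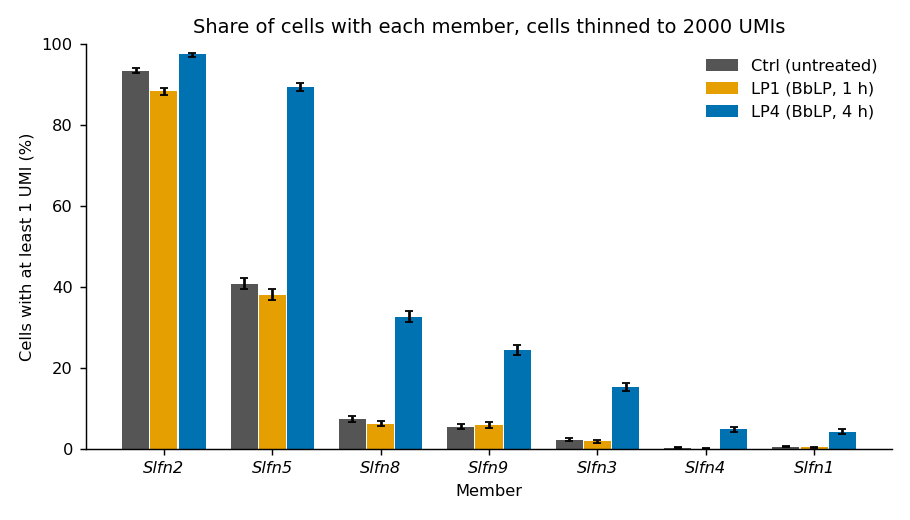
Share of cells with at least 1 UMI of each member, in percent, after thinning each cell to 2000 UMIs, with exact Clopper-Pearson 95% intervals, for Ctrl, LP1 and LP4. The LP4 bar is the tallest for all 7 members, from 97.4% for *Slfn2* to 4.22% for *Slfn1*.

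The scarce members stayed in a minority of LP4 cells. *Slfn1* was found in 17.9% of LP4 cells at full depth (16.8 to 19.0) and *Slfn4* in 13.2% (12.3 to 14.2), against 1.12% and 0.659% in Ctrl and 1.34% and 0.474% in LP1. After thinning, the LP4 shares were 4.22% and 4.82%. *Slfn4* was thus in fewer LP4 cells than *Slfn1* at full depth, and not after thinning. Cells with *Slfn4* held a mean of 3.21 UMIs of it and up to 23, and those with *Slfn1* a mean of 1.62 and up to 9. Of the 618 LP4 cells with *Slfn4*, 310 held 2 or more UMIs. The tenth of LP4 cells richest in the gene held 92.4% of the UMIs of *Slfn4* and 72.9% of those of *Slfn1*. The corresponding shares were 40.1% for *Slfn3*, 37.2% for *Slfn8*, 35.5% for *Slfn9*, 23.1% for *Slfn5* and 20.6% for *Slfn2*. Both this measure and the share of cells with a UMI depend on how many UMIs a gene has. The values that counting alone would give were not computed, so the order of members is no ranking by concentration in particular cells. After thinning, LP4 held 209 UMIs of *Slfn1* in 195 cells and 339 of *Slfn4* in 223 cells.

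More members were found in the same cell at 4 hours, when each member was also found in more of the thinned cells. In thinned cells, 3 or more members shared 7.11% of Ctrl cells but 5.46% of those of LP1 and 53.4% of those of LP4. In the same order, cells with no member made up 4.07%, 6.57% and 0.476%. The shares that unrelated members would give for these counts were not computed, so the counts do not show that members occur together. In LP4, *Slfn8* and *Slfn9* were both found in 10.4% of thinned cells, where 7.93% would hold both if they were unrelated. *Slfn9* was in 32.0% of the cells with *Slfn8* and in 20.6% of the cells without it. *Slfn1* was found with *Slfn9* in 1.41% of cells, against 1.02% if unrelated, and with *Slfn8* in 1.69%, against 1.38%. The part of the stretches that *Slfn8* and *Slfn9* share was not tested. *Slfn4* and *Slfn9* were both found in 1.12% of cells, where 1.17% would hold both if unrelated. An excess of cells with both *Slfn8* and *Slfn9* was not limited to LP4. Both were in 0.908% of Ctrl cells, against 0.402% if unrelated, and in 0.930% of LP1 cells, against 0.361%.

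The cells were divided into 10 clusters by genes other than the members, the interferon lists and the genes that differed between libraries. Clusters A to D were macrophage-like (4333, 4332, 3740 and 1526 cells), E was cycling-like (1337) and F dendritic cell-like (247), and these 6 held at least 50 cells in each library. Cluster E made up less of LP4 (238 cells, 5.10% of the library) than of Ctrl (550, 9.06%) or LP1 (549, 10.8%). The cycling marker sums of whole libraries (667, 735 and 693 CPM) did not show this lower LP4 share. The leading genes were *Dcstamp* and *Fabp4* in A, *Egr3* and *Nr4a3* in B, *Psd3* and *Ccnd1* in C, *Mgll* and *Cd200* in D, *Hist1h1b* and *Hist1h1a* in E and *H2-Eb1* and *H2-Ab1* in F. The name of F rests on *H2-Eb1*, *H2-Ab1*, *H2-Aa* and *Cd74*, and no other listed dendritic cell marker led it. Its macrophage markers summed to 13145 CPM, above the 11657 of macrophage-like cells. The name thus does not set F apart from macrophages high in MHC class II genes. Of the rest, H was neutrophil-like (85 cells), I macrophage-like with stress genes such as *Ddit3* (52), and G (141, of low depth) and J (13, with stromal genes) stayed unnamed. H was led by *Mpo* and *Ms4a3*, and its neutrophil markers summed to 122881 CPM. Its cycling markers summed to 5878 CPM, above the 4007 of cycling-like cells.

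In all 6 clusters compared, the LP4 level of every member exceeded its Ctrl level. The log2 ratio of *Slfn5* ranged from 2.15 (2.06 to 2.23) in D to 2.64 (2.40 to 2.89) in F. *Slfn8* ranged from 1.74 in E (1.54 to 1.94) to 3.40 in F (2.59 to 4.33), and *Slfn9* from 1.72 in E (1.52 to 1.92) to 3.57 in D (3.11 to 4.06). *Slfn3* ranged from 2.35 in E (2.00 to 2.72) to 3.95 in F, where Ctrl had 3 UMIs (2.35 to 6.26). *Slfn2* was below 2-fold in all 6 clusters, from 0.15 in B (0.12 to 0.18) to 0.99 in D (0.94 to 1.04). The Ctrl levels of *Slfn2* in B and D were 2297 and 954 CPM and the LP4 levels 2549 and 1898. *Slfn4* had a ratio of 3.64 (3.05 to 4.29) in B and 5.33 (4.09 to 6.96) in A, on 24 and 5 Ctrl UMIs, and had 12 UMIs in LP4 and 0 in Ctrl in F, a ratio of 1.25 with Ctrl taken at a floor of 3 UMIs in that cluster (lower counting limit 0.73). *Slfn1* ranged from 2.74 in F (1.29 to 4.68) to 5.64 in E, on 1 Ctrl UMI (3.11 to 10.97).

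At 1 hour the clusters differed from each other. *Slfn2* was below Ctrl in all 6, by log2 ratios from -0.52 in A to -0.44 in C. *Slfn5* was below Ctrl in A to E, from -0.39 in E (-0.54 to -0.23) to -0.08 in D (-0.19 to 0.03), and above it in the dendritic cell-like cluster F, with 356 against 257 CPM (0.47, 0.19 to 0.77). *Slfn8* had values below Ctrl in A to E and above it in F, with -0.48 in C (-0.67 to -0.29) and 0.96 in F (0.01 to 2.00), on 13 Ctrl and 36 LP1 UMIs in F. The *Slfn8* interval included 0 in A, D and E. The share of thinned F cells with a UMI hardly differed between Ctrl and LP1. It was 37.9% and 37.7% for *Slfn5*, and 7.37% and 7.79% for *Slfn8*. For *Slfn9* the interval included 0 in every cluster. *Slfn4* was clearly below Ctrl in B alone among the macrophage-like clusters, with 3 UMIs against 24 (-3.35, -5.73 to -1.63).

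**Figure D4:**
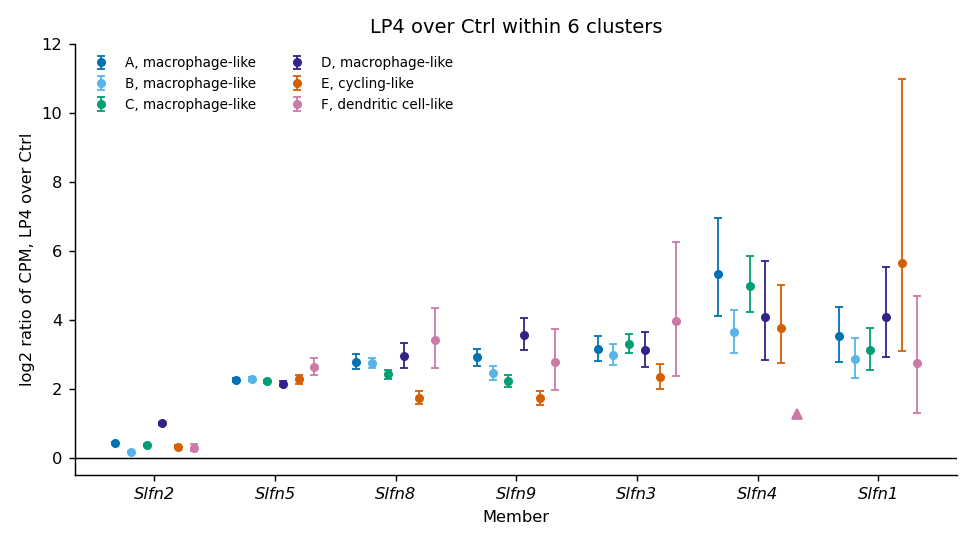
log2 ratio of CPM, LP4 over Ctrl, of each member within clusters A to F, with exact conditional binomial 95% intervals; the triangle is *Slfn4* in cluster F, with 0 Ctrl UMIs taken at a floor of 3 and no interval drawn. All points lie above 0, those of *Slfn5* between 2.15 and 2.64, and those of *Slfn2* between 0.15 and 0.99.

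The members differed in how they stood in cycling-like cells. *Slfn5* was lower in cycling-like than in macrophage-like cells of the same library, in all 3 libraries. It had 127 against 335 CPM in Ctrl, 97.4 against 308 in LP1 and 614 against 1556 in LP4, with log2 ratios of -1.40 (-1.52 to -1.28), -1.66 (-1.77 to -1.56) and -1.34 (-1.39 to -1.29). *Slfn9* was higher in cycling-like cells in all 3, with 55.1 against 24.6 CPM in Ctrl, 61.0 against 25.4 in LP1 and 181 against 143 in LP4 (log2 1.16, 1.27 and 0.34, lowest bound 0.24). *Slfn8* and *Slfn3* were higher in the cycling-like cells of Ctrl (log2 0.64 and 0.70) and LP1 (0.78 and 0.81). In LP4 *Slfn8* was lower there (-0.23, -0.32 to -0.13), and *Slfn3* had an interval that included 0 (-0.09, -0.24 to 0.05). *Slfn2* was lower in cycling-like cells throughout, by log2 -0.35, -0.33 and -0.40. Cycling-like cells were deeper than macrophage-like ones, with medians of 7836, 13797 and 20985 UMIs in the order Ctrl, LP1 and LP4, against 4967, 8953 and 11570. The part of depth in these ratios was not tested.

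**Figure D5:**
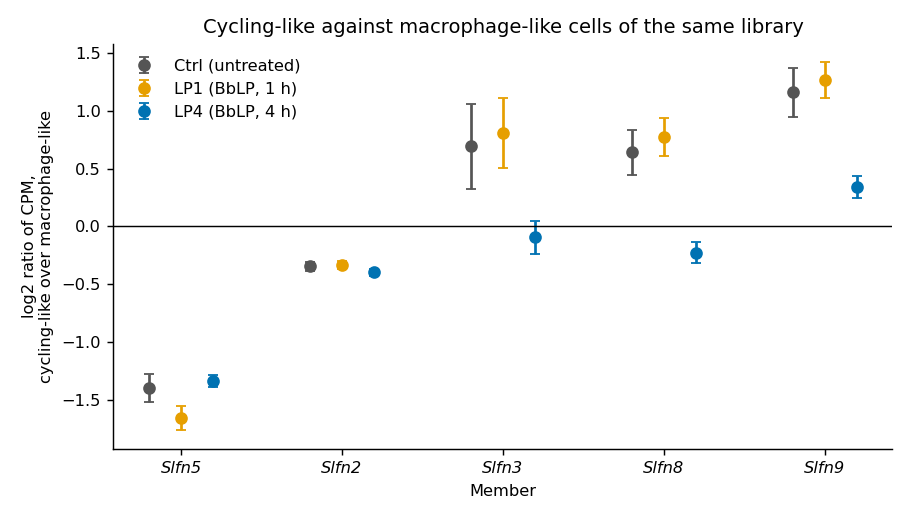
log2 ratio of CPM, cycling-like over macrophage-like cells of the same library, for 5 members in Ctrl, LP1 and LP4, with exact conditional binomial 95% intervals. *Slfn5* is below 0 in all 3 libraries (-1.34 to -1.66) and *Slfn9* above 0 in all 3 (0.34 to 1.27); *Slfn1* and *Slfn4*, with 1 to 8 UMIs in the cycling-like cells of Ctrl and LP1, are not drawn.

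In the 85 neutrophil-like cells *Slfn5* was almost missing, with 1, 0 and 1 UMIs in Ctrl, LP1 and LP4. That is 4.17 CPM in LP4 (0.11 to 23.2) against 1556 in macrophage-like cells (log2 -8.54, -13.8 to -6.06). At full depth 1 of 28 neutrophil-like LP4 cells had a *Slfn5* UMI, at a median of 9262 UMIs per cell, and 4248 of 4262 macrophage-like cells did, at 11570. In thinned cells a *Slfn5* UMI was found in 0 of 28 neutrophil-like and 3911 of 4258 macrophage-like cells. UMIs from free RNA were not estimated. *Slfn8* and *Slfn9* were lower in the neutrophil-like cells of LP4 (41.7 and 45.9 CPM, log2 -2.43 and -1.64 against macrophage-like cells). In Ctrl and LP1 no such difference was detectable: *Slfn8* had 28.7 against 36.9 CPM and 49.7 against 28.8, and *Slfn9* 38.2 against 24.6 and 21.3 against 25.4, on 3 to 7 UMIs and with intervals of the ratio that included 0. *Slfn4* had 6 UMIs in the neutrophil-like cells of Ctrl, all in 1 cell, of 62 UMIs in the library, and 8 of 1981 in LP4.

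The interferon pathway was set beside the family. Of 13 genes of type I interferon signalling, 5 were at least 2-fold higher in LP4 than in Ctrl and 1 at least 2-fold lower, with a median log2 ratio of 0.55. The largest were *Socs1*, a feedback inhibitor of cytokine signalling (1.68, 3.85 and 90.7 CPM in Ctrl, LP1 and LP4, log2 5.75, 5.39 to 6.15), *Ifnb1*, which encodes interferon beta (2, 10 and 96 UMIs, log2 4.80, 2.91 to 7.87), and *Usp18*, a negative regulator of the interferon receptor (log2 3.40, 3.28 to 3.51). The smallest were *Irf3*, a transcription factor that induces *Ifnb1* (-1.09, -1.29 to -0.90), *Irf1* (0.18, 0.14 to 0.22) and *Irf9* (0.23, 0.12 to 0.33), part of the complex that binds the ISRE. Of 24 interferon-stimulated genes, 22 were in the matrices and 19 of those were at least 2-fold higher in LP4, 0 lower, with a median of 1.95, led by *Ifit1* (5.67), *Cmpk2* (5.54) and *Rsad2* (5.27). The smallest were *Oas3* (0.06), *Dhx58* (0.73) and *Oas1a* (0.95). In LP1, 2 of the 13 pathway genes, *Socs1* and *Ifnb1*, were at least 2-fold higher, the latter with an interval that included 0. Of the 22 stimulated genes, *Bst2* alone was 2-fold higher in LP1 (log2 1.23), and the median was -0.29, as for the Schlafen members.

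Within a library, the members followed the interferon-stimulated genes to different degrees. Thinned cells were split into 3 groups of equal size (low, middle and high) by their summed UMIs of the 22 stimulated genes, which include no member. In LP4, *Slfn5* had 1243 CPM in the low and 1863 in the high group (log2 0.58, 0.52 to 0.64), *Slfn8* 179 and 325 (0.86, 0.71 to 1.01) and *Slfn9* 108 and 201 (0.90, 0.70 to 1.09). The values for *Slfn4* were 25.3 and 48.3 CPM (0.93, 0.53 to 1.35), those for *Slfn3* 65.5 and 109 (0.73, 0.47 to 0.99) and those for *Slfn1* 17.5 and 29.2 (0.74, 0.24 to 1.25). *Slfn2* differed least (2228 and 2347 CPM, log2 0.08, 0.03 to 0.12). As a gauge of what a split can give to genes outside the pathway, *Actb* differed by -0.16 and *Lyz2*, encoding lysozyme, by 0.19. Such a group is a range of a score and not a cell type.

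The same split, added after the data were seen, separated the members in untreated cells as well. In Ctrl, *Slfn5* stood at 194 CPM in the low and 508 in the high group (log2 1.39, 1.27 to 1.51), with a UMI in 28.6% and 55.7% of thinned cells. *Slfn9* had 20.2 and 44.1 CPM (1.13, 0.74 to 1.53), *Slfn8* 32.3 and 56.7 (0.81, 0.49 to 1.14), *Slfn3* 6.81 and 18.7 (1.45, 0.80 to 2.15) and *Slfn2* 1561 and 2064 (0.40, 0.35 to 0.45). The scarce members were nearly concentrated outside the low group in these thinned Ctrl cells, with 1 UMI of *Slfn1* in the low and 25 in the high group (log2 4.64, 2.03 to 10.0) and 1 and 14 of *Slfn4* (3.81, 1.09 to 9.21). In LP1 the log2 ratio was 1.45 for *Slfn5* (1.31 to 1.59), 0.90 for *Slfn9*, 0.75 for *Slfn8*, 1.03 for *Slfn3* and 0.30 for *Slfn2*. The low and high groups of LP1 held 0 and 16 UMIs of *Slfn1*, but 1 and 1 of *Slfn4*, too few to show a difference. *Actb* and *Lyz2* gave -0.14 and 0.20 in Ctrl and -0.08 and 0.19 in LP1.

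For each member the genes with the most similar pattern were sought among 3647 genes, by Pearson's r of log2(CPM + 1) over 18 points, the 6 clusters in each of the 3 libraries. The points of a library share their cells' treatment and depth, so the values are descriptions. With profiles centred within library, *Slfn9* kept 2 and *Slfn5* 1 of the 3 genes named here, and each of the other 5 members 0. *Slfn1* was most like *Phf11d*, *Gbp2* and *Gbp2b* (r of 0.98 for each), of which the last 2 encode guanylate-binding proteins. *Slfn2* was most like *Nfkb2*, a subunit of NF-κB (0.93), *Ms4a4a* (0.92) and *Wfdc17* (0.91). *Slfn3* was most like *Rai14*, *Parp12* and *Il27* (0.98 each), and *Slfn4* like *Hnrnph2*, *Hif1a* and *Ppp1r15b* (0.97 each). *Slfn5* was most like *Tapbp*, a chaperone of MHC class I (0.97), *Ifi202b* (0.96) and *Stat3* (0.96). *Slfn8* was most like *Fnbp4* (0.98), *Rab12* (0.97) and *Arid5a* (0.96), and *Slfn9* like *Arid5a* (0.97), *Mgat4a* (0.96) and *Pcgf5* (0.96).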

How the data were processed

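Single-cell RNA sequencing (10x 3′ v3.1) gave 1 library per condition. The deposited values are raw UMI counts of each gene in each barcode, which the authors obtained from Cell Ranger with a mouse mm10 reference. The submitters' processing notes give version 7.1.0, and the study's methods name an earlier one. Whether intronic reads were counted is not given in the sources used here. Reads of C3H/HeN mice were aligned to the mm10 reference, and losses at sites where the strains differ were not measured.

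Cells needed over 500 UMIs, over 500 genes and a mitochondrial share below 5%, which 15806 of 16281 barcodes met, more cells than the study kept with these limits. Doublets were left in. UMIs were summed per library and scaled to CPM, with exact Poisson, conditional binomial and Clopper-Pearson intervals at 95%. A count of 0 was set to a floor of 3, which gives a bound. The sums ranged from 35688939 to 61402275 UMIs. At the LP1 sum of 52475723, the 26 UMIs of *Slfn4* gave 0.50 CPM with an interval of 0.32 to 0.73.

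For clustering, 2000 variable genes were centred within library and reduced to 30 principal components, with 20 neighbours and Leiden at a resolution of 0.5. Clusters were named by at least 3 markers. All 7 members are named, and of each interferon list the 3 largest and 3 smallest LP4 over Ctrl ratios. For each member the 3 most similar genes with at least 50 CPM in a library are named. The members and lists were chosen with earlier results of these data known. Alternatives were other filters, scalings, depths of thinning, resolutions and fold limits, removal of the 5% of cells with the highest doublet scores, and macrophage-like clusters alone. The ratio and its interval were tested on simulated data. Promoters are from RefSeq on GRCm38.p6. Protein sequences were not analysed here. TMM factors came from edgeR 4.0.16 in R 4.3.3, and all else from Python 3.11.15 with scipy 1.17.1, numpy 2.4.6, leidenalg 0.10.2, igraph 0.11.9, pandas 2.3.3 and matplotlib 3.10.9.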

Additional observations from a re-analysis of the deposited data

Results flagged for a closer look

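For 5 members the LP1 value lay below Ctrl and the LP4 value above it, with neither interval including 0. The log2 ratios to Ctrl were -0.63 at 1 hour and 3.26 at 4 hours for *Slfn1*, -0.50 and 0.38 for *Slfn2*, -1.81 and 4.22 for *Slfn4*, -0.15 and 2.27 for *Slfn5*, and -0.29 and 2.49 for *Slfn8*. The LP1 ratio of *Slfn5* came closer to 0 in some settings, at -0.030 with a mitochondrial limit of 3%, -0.075 with TMM and -0.070 with median of ratios scaling. Cells of LP1 were also deeper, with a median of 9343 UMIs against 5133 in Ctrl. When thinned Ctrl cells were split into 3 groups by total UMIs, *Slfn2* and *Slfn5* were lower in the deepest group than in the shallowest. The log2 ratios were -0.55 (-0.60 to -0.50) and -0.39 (-0.50 to -0.27), while for *Slfn1*, *Slfn4* and *Slfn8* the interval included 0. The part of depth in the LP1 ratios was not tested. With 1 library at each time, the difference between the time points was not tested, and both ratios share the Ctrl library. Ctrl was harvested with LP4 and not with LP1, so that time in culture and treatment cannot be told apart in that comparison.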

How the results depend on the processing

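No paired analysis was possible because each condition is 1 library. The counts of 6, 6 and 0 members at least 2-fold higher (LP4 over Ctrl, LP4 over LP1, LP1 over Ctrl) held under every filter, scaling, thinning and fold limit tried, except that LP4 over LP1 gave 7 at 1.5-fold or with median of ratios scaling. Of 70 recomputed ratios in each comparison, 9 (LP1 over Ctrl), 24 (LP4 over Ctrl) and 19 (LP4 over LP1) moved beyond counting error. Where the reported interval excluded 0, 0 changed direction. A change of direction was not counted where the reported interval included 0, as for *Slfn3* and *Slfn9* in LP1 over Ctrl. The median of the 7 members for LP4 over Ctrl, 2.49, was 2.67 with a mitochondrial limit of 3%, 2.61 in macrophage-like clusters alone, 2.66 with TMM scaling, 2.70 with median of ratios scaling and 2.58 with cells thinned to 2000 UMIs. TMM shifted every gene by 0.17 and median of ratios scaling by 0.21 in this comparison. For LP4 over LP1 the median of 2.78 was 2.97 in macrophage-like clusters, 2.88 with TMM and 2.91 with median of ratios scaling, and for LP1 over Ctrl the median of -0.29 was -0.19 with the limit of 3%. By clusters, the largest LP1 ratio of *Slfn4* turned to 1.22 at a resolution of 0.8 and the smallest of *Slfn9* to 0.042 at 0.3. Split by total UMIs in place of the interferon score, the LP4 high over low ratios were -0.18 for *Slfn1*, -0.33 for *Slfn2*, -0.11 for *Slfn3*, -0.29 for *Slfn4*, -0.41 for *Slfn5*, -0.62 for *Slfn8* and -0.40 for *Slfn9*. The cause of these changes was not tested. Added after the data were seen, *Slfn8* and *Slfn9* counted together gave 2.44 and *Slfn3* and *Slfn4* together 3.26 for LP4 over Ctrl. *Slfn4* in LP1 rests on 26 UMIs, which limits its ratios.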

Other observations

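The LP4 cells that held the scarce members were set beside those without them, a choice made after the values were seen. The 310 LP4 cells with at least 2 UMIs of *Slfn4*, against 4052 with none, were led by *Ccl7*, encoding a monocyte-attracting chemokine (295 against 133 CPM, log2 1.15, 1.06 to 1.23), *F13a1*, encoding the A subunit of coagulation factor XIII (0.94), *Iigp1*, an immunity-related GTPase (0.88), *Ms4a4c* (0.84) and *Ccl2* (410 against 231 CPM, log2 0.83, 0.76 to 0.90). The 301 cells with at least 2 UMIs of *Slfn1*, against 3836 with none, were led by *Gbp4*, a guanylate-binding protein gene (56.7 against 22.1 CPM, log2 1.36, 1.16 to 1.55), *Dach1* (1.01), *Iqgap2* (0.93), *AW112010* (0.85) and *Ms4a4c* (0.85). The median depth was 13006 against 11526 UMIs for *Slfn4* and 14052 against 11444 for *Slfn1*, and its part in these values was not tested. Cells were pooled over clusters, and *F13a1* was also among the leading genes of cluster B. In LP4, *Slfn4* had 41.0 CPM in B and 42.0 in C, against 12.1 to 25.3 in A, D, E and F. The part of cluster make-up was not tested either. Of the 5 leading genes, *Ms4a4c* was common to both. All of these cells come from 1 library, and intervals cover counting error only.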
